A study of Mus musculus with 24 samples.

Results

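The respiratory chain and ATP synthase genes described here were chosen by name: a gene belongs to them when its name in the array files begins with Nduf (complex I), Uqcr (complex III) or Atp5 (complex V), is Sdha, Sdhb, Sdhc or Sdhd (complex II), or begins with Cox4 to Cox8 (complex IV). Of 86 such names, 82 had a probe that stood well above background on every one of the 3 arrays in 1 or more of the 8 groups, and these are 82 of the 15100 gene names tested on the array. They comprise 39 complex I names (7 core subunits, 30 accessory subunits and 2 assembly factors), 4 of complex II, 7 of complex III, 14 of complex IV and 17 of complex V. The remaining one, Cox4nb, is called Emc8 today and is no subunit of the chain; it was matched by its old name only. Complexes are given by gene name, so Atp5sl, which is known as an assembly factor of complex I, counts among the 17 of complex V, and Ndufa4, now regarded as a complex IV subunit, among the 30 accessory subunits of complex I. The 4 names that did not pass are Cox4i2 (well above background on 6 of 24 arrays), Cox7b2 (0 arrays), Cox8b (0 arrays) and Cox8c (1 array). The genes were selected by name, not by measured values, and the rule takes no subunit encoded by mitochondrial DNA.

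RNA came from RAW264.7, a mouse macrophage-like cell line, grown in medium with G418. One line carried a Tbc1d23 overexpression construct and the other a construct for chloramphenicol acetyltransferase (CAT), a bacterial enzyme that serves as control. Each line received lipopolysaccharide (LPS, the bacterial TLR4 ligand) at 20 ng/ml for 1, 3 or 5 h, or none (0 h). The 8 groups are therefore the Tbc1d23 line at 0, 1, 3 and 5 h and the CAT line at 0, 1, 3 and 5 h, with 3 one-colour Agilent arrays each. There was 1 line per construct, so a difference between the lines cannot be told apart from a difference between individual transfected lines. The series calls the replicates biological without saying whether cultures were separate, so the p-values reflect only the spread among these arrays, which may be technical.

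As background, complexes I and II pass electrons from NADH and succinate to ubiquinone, complex III hands them to cytochrome c and complex IV to oxygen, and ATP synthase (complex V) uses the resulting proton gradient to make ATP. Most subunits are encoded in the nucleus and several have tissue-specific isoforms. Macrophages exposed to LPS are known for shifting towards glycolysis, and succinate oxidation by complex II is known to take part in their inflammatory response.

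The 250 bases before the transcription start (RefSeq, GRCm38.p6, 5′ to 3′) are shown for the genes on which the account below turns. Atp5g1, Atp5g2 and Atp5g3 encode the same c subunit and had line differences of unlike sign or size, Cox7a1 had the most negative line difference of the 82, and Sdha and Sdhd are the complex II subunits with the most negative and the only positive line differences of that complex. Capitals mark matches, on either strand, to the NRF1 motif, to CCGGAAG (an ETS motif) or to GGGCGG (a GC box).
Atp5g1, chr11:96075632-96075881, minus strand: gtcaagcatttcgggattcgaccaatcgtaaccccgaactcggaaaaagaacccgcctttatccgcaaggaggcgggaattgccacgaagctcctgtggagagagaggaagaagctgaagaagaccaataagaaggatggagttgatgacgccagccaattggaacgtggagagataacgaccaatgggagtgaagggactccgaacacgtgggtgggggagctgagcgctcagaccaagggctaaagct
Atp5g2, chr15:102671048-102671297, minus strand: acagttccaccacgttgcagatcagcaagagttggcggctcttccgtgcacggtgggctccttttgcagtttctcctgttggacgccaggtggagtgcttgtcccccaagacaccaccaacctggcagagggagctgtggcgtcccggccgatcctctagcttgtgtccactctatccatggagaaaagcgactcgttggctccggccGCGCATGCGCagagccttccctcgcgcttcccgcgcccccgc
Atp5g3, chr2:73911327-73911576, minus strand: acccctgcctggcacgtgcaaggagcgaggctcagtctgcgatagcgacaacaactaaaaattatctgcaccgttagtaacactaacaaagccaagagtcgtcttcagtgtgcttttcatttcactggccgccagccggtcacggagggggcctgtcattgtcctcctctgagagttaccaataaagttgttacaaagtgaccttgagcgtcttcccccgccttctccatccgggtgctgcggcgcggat
Cox7a1, chr7:30183921-30184170, plus strand: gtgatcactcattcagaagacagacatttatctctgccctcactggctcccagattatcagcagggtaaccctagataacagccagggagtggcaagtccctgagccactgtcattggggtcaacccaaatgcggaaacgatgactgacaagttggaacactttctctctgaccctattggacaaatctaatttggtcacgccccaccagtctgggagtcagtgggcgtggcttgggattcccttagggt
Sdha, chr13:74350241-74350490, minus strand: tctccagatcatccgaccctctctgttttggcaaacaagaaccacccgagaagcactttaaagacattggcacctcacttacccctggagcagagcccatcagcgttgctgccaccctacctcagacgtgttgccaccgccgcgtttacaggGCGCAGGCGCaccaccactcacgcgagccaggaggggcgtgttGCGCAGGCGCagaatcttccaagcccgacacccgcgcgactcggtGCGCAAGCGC
Sdhd, chr9:50603850-50604099, minus strand: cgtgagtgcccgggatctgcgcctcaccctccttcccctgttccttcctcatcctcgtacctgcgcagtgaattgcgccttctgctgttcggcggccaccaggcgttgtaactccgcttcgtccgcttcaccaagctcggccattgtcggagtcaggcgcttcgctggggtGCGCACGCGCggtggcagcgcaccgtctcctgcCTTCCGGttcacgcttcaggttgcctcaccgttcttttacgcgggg
A promoter was listed for 69 of the 82 genes, 6 of them with several starts, of which the first listed was used. The NRF1 motif occurred in 12 of the 69 windows (17.4%), against 3.86% of 27025 gene promoters of the same length. The ETS letters occurred in 12 (17.4%), against 7.05%, and the GC box in 27 (39.1%), against 32.9%. Among genes lower in the Tbc1d23 line at all 4 times, 3 of 20 windows (15%) held the NRF1 motif, against 9 of 49 (18.4%) for the other members. A match describes these letters in this window and nothing more. On the array, whose probes are placed on mm9, Cox7a1 was read by a probe at chr7:30970337-30970948 and Sdha by one at chr13:74465756-74465815. The c subunit probes lay at chr11:95934924-95934983 (Atp5g1), chr15:102493444-102493503 (Atp5g2) and chr2:73746519-73746578 (Atp5g3).

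Between 42.1 and 69.6% of an array's probes exceeded background clearly. Both extremes were Tbc1d23 arrays at 0 h, replicate 2 the lowest and replicate 1 the highest, while CAT arrays ranged from 48.4 to 54%. The probe used for each member was well above background on all 24 arrays for 82 of 82 members, and this held for 11138 of the 15100 gene names. Each slide carried the 4 times of 1 replicate of 1 line, and Tbc1d23 replicates 1 and 2 were on slides of another serial run than Tbc1d23 replicate 3 and all CAT slides. A serial run here means slides whose barcode numbers follow each other. It was inferred from the numbers alone, and what a run stands for is not stated. For several members Tbc1d23 replicate 3 stands apart from replicates 1 and 2, and the values without its slide are given beside Ndufs8, Uqcrc1, Atp5g3 and Atp5b. The brightest Tbc1d23 probe was not called different between the lines at any time (limma log2 differences 0.03, -0.16, 0.47 and -0.18 at 0, 1, 3 and 5 h), and a second probe was called higher at 3 h (1.00 ± 0.18, limma adjusted p = 0.000114) and at 5 h (0.49 ± 0.18, limma adjusted p = 0.0261).

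The line comparison asks whether respiratory chain transcripts differ between cells with the Tbc1d23 construct and control cells. In the Tbc1d23 line 27 of 82 members were lower and 4 were higher at 0 h, with 24 lower and 5 higher at 1 h, 31 and 3 at 3 h, and 35 and 5 at 5 h. Called means a Benjamini-Hochberg adjusted p under 0.05 over all gene names in limma. The lower members were 32.9, 29.3, 37.8 and 42.7% of the 82, beside 20.2, 21.2, 23.7 and 23.5% of all gene names. The higher members were 4.88, 6.1, 3.66 and 6.1%, beside 25.1, 24.6, 27.4 and 29.9% of all gene names. In either direction 37.8, 35.4, 41.5 and 48.8% of members were called, beside 45.3, 45.7, 51 and 53.5% of all gene names. All 82 members were well above background on every array, against 11138 of the 15100 gene names. The shares here and below are not matched for that. In bulk RNA, fewer cells of a type and less RNA per cell cannot be told apart.

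The median line difference of the members was -0.19, -0.13, -0.25 and -0.27 on the log2 scale at 0, 1, 3 and 5 h, against 0.09, 0.06, 0.05 and 0.10 over all gene names. At 0 h 4 of the 82 members were called and differed at least 2-fold, as did 18.4% of all gene names. The groups did not overlap for 45 of 82 members at 0 h, against 51.9% of all gene names, for 33 at 1 h, against 53.2%, for 32 at 3 h, against 55.5%, and for 44 at 5 h, against 60.1%. Counts depended on the scaling. Quantile normalization gave 47 lower and 3 higher members at 0 h, beside 49.1% of all gene names called and 27.5% lower, with the median of all gene names moved to -0.07. Scaling to each array's median, which lies near background, gave 33 lower and 1 higher at 0 h but 17 lower and 0 higher at 5 h. That scaling also made the median of all gene names negative at 0 h, with the value given at the end of the report. No share of all gene names is set beside these counts, and they are not read as a result about the members. Without CAT replicate 1 at 5 h, 24 members were called at 5 h in place of 40.

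At all 4 times 22 members were called lower and 2 higher, against 10.5% of all gene names lower and 14.6% higher. By complex, the 22 are 3 of 4 complex II subunits, 6 of 14 of complex IV, 4 of 17 of complex V, 2 of 7 core and 5 of 30 accessory subunits of complex I, 1 of its 2 assembly factors and 1 of 7 of complex III. Within the slide run that holds both lines (the shared run), where 1 Tbc1d23 array per time (replicate 3) stands against 3 CAT arrays and the spread comes from CAT alone, the difference was below 0 at all 4 times for all 22, and 11 of them were called at every time (Atp5g2, Atp5h, Cox5b, Cox7a1, Ndufa10, Ndufa3, Ndufv1, Ndufv3, Sdha, Sdhb and Sdhc). Over all members that run gave 20 lower and 1 higher at 0 h, 17 and 1 at 1 h, 18 and 2 at 3 h, and 18 and 3 at 5 h. Of all gene names 34.6, 34.1, 42.1 and 44.9% were called there at 0, 1, 3 and 5 h, and 14.8, 15.6, 18.9 and 20.1% were lower. Without the slide of Tbc1d23 replicate 3, 21 of the 22 were called lower at every time, while 8 members in place of 2 were called higher at every time. When slide run was blocked, 17 of the 22 were called lower at every time, and 1 member was called higher. With scaling to the array median 5 members were lower at all 4 times (Atp5g2, Cox5b, Cox7a1, Ndufa3 and Ndufv3), all of them among the 22. The shares of all gene names called at all 4 times, 10.5 and 14.6%, belong to the main fit. None is given for the alternative fits, so their counts show which members kept their call and are not set against all gene names. Whether the slide run contributes to the rest was not tested.

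**Figure D1:**
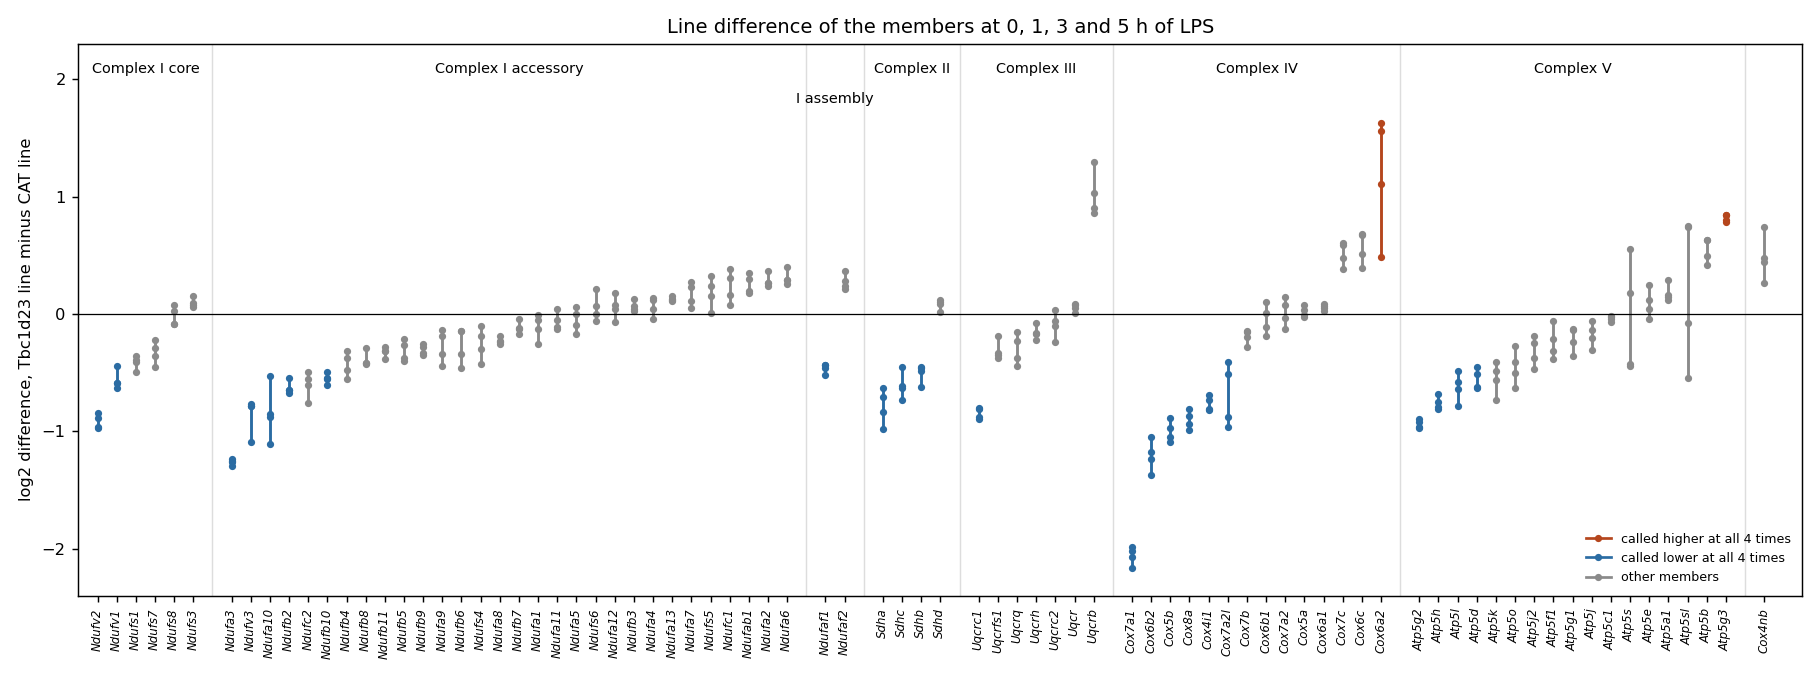
Log2 difference, Tbc1d23 line minus CAT line, of 81 of the 82 members, grouped by complex and ordered within it. Each dot is 1 LPS time (0, 1, 3 or 5 h), joined by a line per gene; blue marks the 22 members called lower at all 4 times, red the 2 called higher, and Cox7a1 lies lowest near -2.

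Among the core subunits of complex I, which carry the redox centres, Ndufv2 and Ndufv1 were lower at all 4 times. Ndufv2, an iron-sulfur subunit of the NADH-oxidizing part, had levels of 3.33, 3.54 and 3.89 on Tbc1d23 arrays at 0 h, against 4.41, 4.52 and 4.71 on CAT arrays (log2 signal over the array's 75th percentile, the level unit throughout). All 3 Tbc1d23 arrays were below all CAT arrays, and the difference was -0.96 ± 0.20 (SE, n = 3 each, limma adjusted p = 0.000573). Ndufv1, which binds NADH and FMN, had levels of 4.81, 5.08 and 4.76 on Tbc1d23 arrays against 5.53, 5.46 and 5.55 on CAT arrays, a difference of -0.63 ± 0.12 (limma adjusted p = 0.000192). Its groups did not overlap. Ndufs1 and Ndufs7, further iron-sulfur subunits, were also lower at 0 h, with differences of -0.49 and -0.45 (limma adjusted p = 0.0192 and 0.0444), but not at every time. Ndufs1 was not called at 0 h when slide run was blocked (-0.22, limma adjusted p = 0.0956) or inside the shared run (-0.22, limma adjusted p = 0.306). Ndufs7 was not called at 0 h with no filter on dim probes (limma adjusted p = 0.0627), or without CAT replicate 1, 2 or 3 or Tbc1d23 replicate 1 or 3 at 0 h (limma adjusted p = 0.0635 to 0.123). Ndufs3 and Ndufs8 differed by 0.06 and 0.08 at 0 h and were not called. A fit with the slide run as block called Ndufs8 lower at 0 h (-0.43, limma adjusted p = 0.0375): its Tbc1d23 replicate 3 level was 2.47, against 3.25 and 3.47 in replicates 1 and 2. Without the slide of replicate 3 the Ndufs8 difference was 0.37 at 0 h and was not called (limma adjusted p = 0.0955).

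Of the 30 accessory subunits of complex I, 6 were lower and 1 higher at 0 h, and 10 lower and 0 higher at 5 h. These lower members are 20% and 33.3% of the class, beside 20.2 and 23.5% of all gene names. The accessory subunits lower at all 4 times include Ndufa3, Ndufv3, Ndufa10 and Ndufb2. Ndufa10, a subunit of the membrane arm, had levels of 2.50, 1.93 and 2.35 on Tbc1d23 arrays at 5 h, against 3.57, 3.22 and 3.31 on CAT arrays. The 5 h groups lay apart, with a difference of -1.11 ± 0.14 (limma adjusted p = 3.04e-06). Ndufa3 had the largest difference of the class, -1.23 ± 0.20 at 0 h (limma adjusted p = 6.54e-05), yet its probes disagreed: a dimmer probe differed by 0.11 at 0 h and was called higher at 5 h (0.54 ± 0.20, limma adjusted p = 0.0284), and its direction is uncertain. Ndufaf1, an assembly factor, was lower, at -0.46 ± 0.13 at 0 h (limma adjusted p = 0.00807), and inside the shared run it differed by -0.20 and was not called (limma adjusted p = 0.273).

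In complex II, succinate dehydrogenase, 3 of 4 subunits were lower at every time. Sdha, the flavoprotein that oxidizes succinate, had levels of 1.37, 1.37 and 1.09 on Tbc1d23 arrays at 0 h, against 2.40, 2.14 and 2.24 on CAT arrays. All Tbc1d23 arrays were below all CAT arrays at 0 h and again at 5 h, where the levels were 1.34, 1.65 and 1.17 on Tbc1d23 arrays, against 2.16, 1.93 and 1.96 on CAT arrays. The difference was -0.98 ± 0.14 at 0 h (limma adjusted p = 1.52e-05) and -0.63 ± 0.14 at 5 h (limma adjusted p = 0.000949). Its other probes differed by -1.64 (called) and -0.13 (not called, well above background on 15 arrays) at 0 h. Sdhb, the iron-sulfur subunit, and Sdhc, a membrane anchor that helps bind haem and ubiquinone, were lower, at -0.63 ± 0.14 and -0.61 ± 0.09 at 0 h (limma adjusted p = 0.00159 and 1.72e-05). Scaling to the array median ended the calls of Sdha and Sdhb at 1, 3 and 5 h. It also ended those of Sdhc at 1 and 3 h (limma adjusted p = 0.0518 to 0.381 for these calls). All 3 stayed below 0 there at every time. At 1, 3 and 5 h the Sdhb call was lost without that time's CAT replicate 1 or Tbc1d23 replicate 3 (limma adjusted p = 0.0529 to 0.0701). Sdhd, the other membrane anchor, had levels of 5.91, 6.10 and 5.59 on Tbc1d23 arrays and 5.62, 5.85 and 5.78 on CAT arrays. These groups overlapped, and the difference was 0.12 ± 0.17 (limma adjusted p = 0.621). The same 3 subunits of 4 were called lower inside the shared run at each time.

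Complex III showed 1 lower and 0 higher of 7 members at 0 h and 3 lower and 0 higher at 5 h. The lower ones are 14.3 and 42.9% of the complex, beside 20.2 and 23.5% of all gene names. Uqcrc1, a core subunit, was lower at all 4 times, with levels of 5.50, 5.70 and 6.17 on Tbc1d23 arrays at 0 h, against 6.46, 6.63 and 6.69 on CAT arrays. Replicate 3 was the closest of the Tbc1d23 arrays to the CAT arrays, and the difference was -0.80 ± 0.25 (limma adjusted p = 0.013). A second Uqcrc1 probe was lower, at -0.96 ± 0.13 (limma adjusted p = 8.13e-06). Inside the shared run Uqcrc1 lay between -0.56 and -0.29 and was not called at any time. Without the slide of Tbc1d23 replicate 3 it was -0.99 at 0 h (limma adjusted p = 0.000599). The Rieske iron-sulfur gene Uqcrfs1 was called lower at 1, 3 and 5 h (-0.37 ± 0.13 at 5 h, limma adjusted p = 0.0235). None of its 3 calls held with the slide as a random block (limma adjusted p = 0.0753, 0.0868 and 0.0523), when slide run was blocked (0.158, 0.188 and 0.11) or with no filter on dim probes (0.0934, 0.113 and 0.0627), and inside the shared run its 5 h difference was -0.19. The core gene Uqcrc2 was not called at any time (-0.23 ± 0.10 at 5 h, limma adjusted p = 0.0564). In size the largest differences of the complex were positive, those of Uqcrb, named here after its values were seen. Uqcrb differed by 0.90, 1.30, 1.03 and 0.86 at 0, 1, 3 and 5 h and was not called at any time.

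Complex IV, cytochrome c oxidase, held both the most negative and the most positive differences at 0 h, and they lay in genes of tissue-restricted isoforms. Cox7a1, the isoform of subunit 7a known from heart and skeletal muscle, had levels of 0.04, 0.26 and 0.08 on Tbc1d23 arrays at 0 h, against 1.97, 2.29 and 2.16 on CAT arrays. At 5 h the levels were 0.01, 0.07 and 0.05 on Tbc1d23 arrays and 2.21, 1.96 and 1.90 on CAT arrays. Every Tbc1d23 array was below every CAT array at both times, with little spread within either line. The difference was -2.02 ± 0.13 at 0 h (limma adjusted p = 7.99e-10), and between -2.19 and -1.97 over the 4 times inside the shared run. The broadly expressed isoform Cox7a2 differed by 0.08 ± 0.13 at 0 h (limma adjusted p = 0.666).

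Cox6b2, known as a testis isoform of subunit 6b, was lower at all 4 times, with levels of -1.12, -0.90 and -0.59 on Tbc1d23 arrays at 0 h and -0.11, 0.09 and 0.56 on CAT arrays. The groups did not overlap, and the difference was -1.05 ± 0.37 (limma adjusted p = 0.0275); its usual counterpart Cox6b1 differed by 0.01 ± 0.16 (limma adjusted p = 0.968). When slide run was blocked Cox6b2 was called at 5 h alone (-0.57 at 0 h, limma adjusted p = 0.171), and scaling to the array median ended its calls at 1 and 3 h (limma adjusted p = 0.0557 and 0.0882). The 0 h call of Cox6b2 was also lost without CAT replicate 3 or Tbc1d23 replicate 1 or 2 at 0 h (limma adjusted p = 0.112, 0.0911 and 0.0621). Cox6a2, the heart and muscle isoform of subunit 6a, was higher, with levels of -0.62, -0.55 and -0.09 on Tbc1d23 arrays at 0 h and -2.25, -1.92 and -1.98 on CAT arrays. All Tbc1d23 arrays were above all CAT arrays, by 1.63 ± 0.19 (limma adjusted p = 1.07e-06), and at 5 h by 0.49 ± 0.19 (limma adjusted p = 0.0348). The other isoform Cox6a1 differed by 0.07 ± 0.16 (limma adjusted p = 0.771). At 5 h Cox6a2 was not called with quantile normalization (0.44, limma adjusted p = 0.0532) or with scaling to the array median (0.24, limma adjusted p = 0.616), with no filter on dim probes (limma adjusted p = 0.0744), or without CAT replicate 1 or 3 at 5 h (limma adjusted p = 0.0647 and 0.108). Without Tbc1d23 replicate 3 at 5 h the Cox6a2 difference was 0.30 (limma adjusted p = 0.195).

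Among the broadly expressed subunits Cox5b, Cox8a and Cox4i1 were lower at all 4 times. Cox5b, a subunit on the matrix side, had levels of 6.20, 6.43 and 6.61 on Tbc1d23 arrays at 0 h, against 7.40, 7.35 and 7.41 on CAT arrays. The groups lay apart, with a difference of -0.97 ± 0.17 (limma adjusted p = 0.000122). Cox4i1, the broadly expressed isoform of subunit 4, was lower, at -0.73 ± 0.13 and Cox8a at -0.81 ± 0.18 (limma adjusted p = 0.000169 and 0.00101), whereas Cox5a, the partner of subunit 4, differed by 0.03 ± 0.13 (limma adjusted p = 0.862). Cox7a2l, which joins complexes III and IV into supercomplexes, was lower, at -0.96 ± 0.16 at 0 h (limma adjusted p = 6.45e-05) and at -0.41 ± 0.16 at 5 h (limma adjusted p = 0.0362), when the arrays of the lines overlapped. The 5 h difference of Cox7a2l was -0.13 when slide run was blocked (limma adjusted p = 0.241) and -0.12 inside the shared run (limma adjusted p = 0.583), not called in either, while at 0 h it was called in both (-0.69 and -0.70). Cox7b and Ndufa4, which is named for complex I but is now regarded as a complex IV subunit, differed by -0.15 ± 0.15 and 0.12 ± 0.19 at 0 h and were not called at any time.

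In ATP synthase the genes for the c subunit of the rotor, whose promoters are shown above, were lower for Atp5g2 and higher for Atp5g3, and Atp5g1 was not called. Atp5g2 had levels of 5.26, 5.48 and 5.38 on Tbc1d23 arrays at 0 h, against 6.22, 6.29 and 6.29 on CAT arrays. The arrays of the lines lay apart, with a difference of -0.89 ± 0.16 (limma adjusted p = 2e-04), and a second Atp5g2 probe was lower, at -1.68 ± 0.22. Atp5g3 had levels of 9.18, 9.42 and 8.64 on Tbc1d23 arrays at 0 h and 8.03, 8.37 and 8.30 on CAT arrays. All Tbc1d23 arrays of Atp5g3 were above the CAT arrays, replicate 3 being the closest, with a difference of 0.84 ± 0.25 (limma adjusted p = 0.0103). Inside the shared run Atp5g3 was above 0 at all 4 times (0.31 to 0.40) but was not called, nor was it with scaling to the array median (0.30 at 0 h, limma adjusted p = 0.579). Without the slide of Tbc1d23 replicate 3 its difference was 1.06 at 0 h (limma adjusted p = 9.15e-05). Atp5g1 had levels of 5.29, 5.57 and 5.63 on Tbc1d23 arrays and 5.61, 5.58 and 5.73 on CAT arrays at 0 h, which overlapped, and it was not called (-0.14 ± 0.18, limma adjusted p = 0.569).

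**Figure D2:**
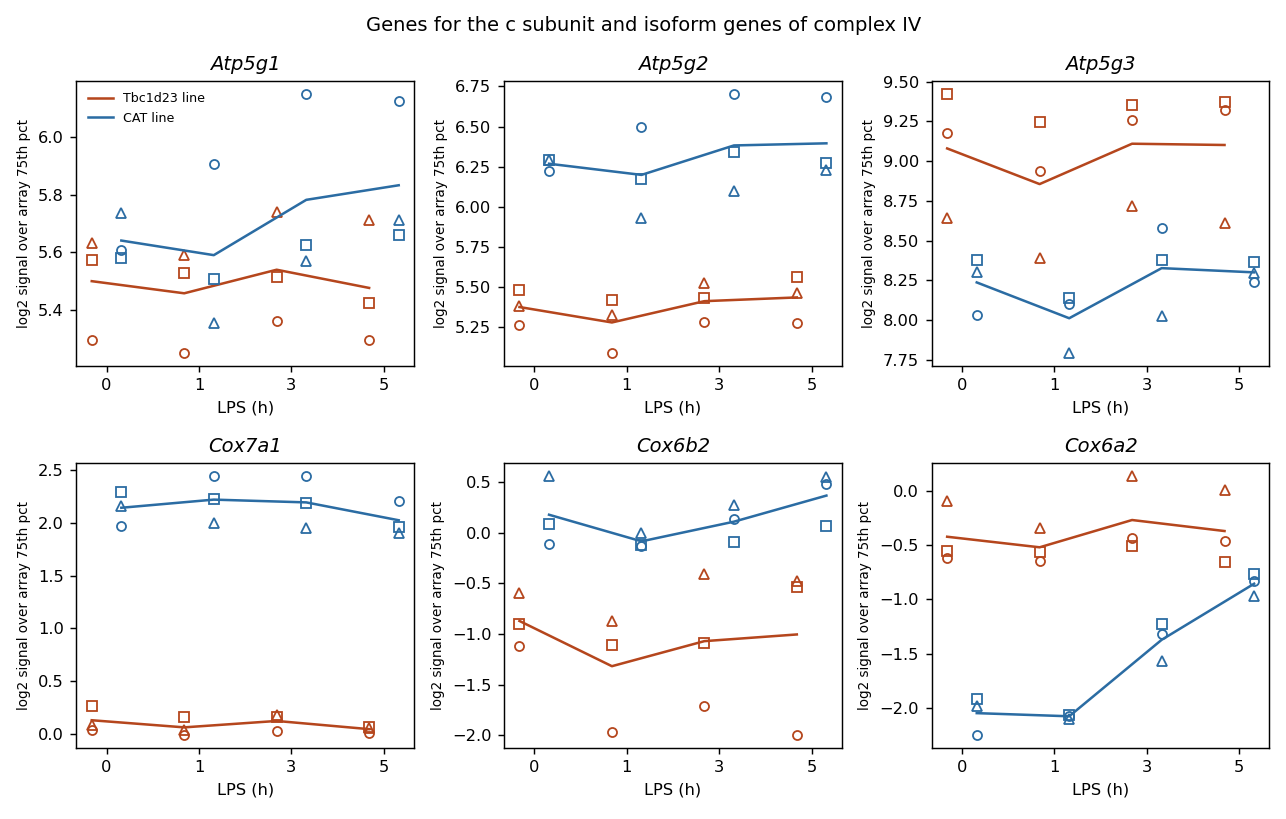
Level (log2 signal over the array's 75th percentile) against LPS time, spaced evenly, for Atp5g1, Atp5g2, Atp5g3, Cox7a1, Cox6b2 and Cox6a2. Each symbol is 1 array (circle, square and triangle for replicates 1, 2 and 3), lines join means of 3 arrays, red is the Tbc1d23 line and blue the CAT line; vertical scales differ between panels and do not start at 0. Cox7a1 lies near 0 on Tbc1d23 arrays and near 2 on CAT arrays at every time.

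The catalytic head of ATP synthase depended on the probe. Atp5b, the catalytic beta subunit, had levels of 9.09, 9.31 and 8.28 on Tbc1d23 arrays at 0 h with its brightest probe, against 8.12, 8.33 and 8.34 on CAT arrays. Tbc1d23 replicates 1 and 2 were above and replicate 3 lay among the CAT arrays, and Atp5b was not called (0.63 ± 0.29, limma adjusted p = 0.0856). Without the slide of replicate 3 this probe was called higher at 0 h (0.94, limma adjusted p = 6.15e-05). Its other probes were lower at 0 h, at -0.69 ± 0.15 and -0.56 ± 0.21 (limma adjusted p = 0.00128 and 0.0395). Atp5a1, the alpha subunit, likewise differed by 0.29 ± 0.16 with its brightest probe (limma adjusted p = 0.144) and by -0.63 ± 0.12 with a dimmer one, which was called lower at all 4 times. The gamma subunit Atp5c1, the central shaft, differed by -0.07 ± 0.13 (limma adjusted p = 0.69). Atp5h, a subunit of the peripheral stalk, was lower, at -0.75 ± 0.14 (limma adjusted p = 0.000338), and Atp5l, the membrane subunit g, was lower at all 4 times (-0.58 ± 0.17 at 0 h, limma adjusted p = 0.0112). When slide run was blocked Atp5l was not called at 0 h (-0.40, limma adjusted p = 0.0625) or 1 h (-0.31, limma adjusted p = 0.147), and inside the shared run it was called at 0 of 4 times (-0.53 to -0.32). Without CAT replicate 1 at 1 h its 1 h difference was -0.30 (limma adjusted p = 0.18). Atp5o, another stalk subunit, was lower at 3 and 5 h (-0.63 ± 0.18 and -0.50 ± 0.18, limma adjusted p = 0.00756 and 0.0277), the 5 h call being lost with no filter on dim probes (limma adjusted p = 0.061) and without the slide of Tbc1d23 replicate 3 (0.0545).

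Among the 24 members with several kept probes, all probes of a gene had the same sign of line difference in 12, 14, 13 and 15 genes at 0, 1, 3 and 5 h. Of the 22 members lower at all 4 times 6 have several probes, and in 4 of these (Atp5g2, Atp5h, Sdha and Uqcrc1) every probe was below 0 at every time. The exceptions were Ndufa3 and Ndufv3, which each have a probe above 0 at 1 or more times. Ndufab1, the acyl carrier protein of complex I, has a dimmer probe that was higher at all 4 times (0.63 to 0.77), while its brightest was called at 2 times; it is named here after its values were seen. Probe-level p-values were adjusted over 21964 kept probes.

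The LPS comparison asks whether the members' levels change within each line. In the Tbc1d23 line 0 of 82 members were called at 1, 3 or 5 h, where 1.66, 6.78 and 6.35% of all gene names were called by limma. At an unadjusted p under 0.05 the counts were 0, 1 and 1. In the CAT line 1, 3 and 5 members were called at 1, 3 and 5 h, against 7.54, 34.8 and 41.6% of all gene names. At an unadjusted p under 0.05 there were 1, 4 and 7. Without CAT replicate 3 at 0 h, or replicate 2 at 5 h, 3 members were called at 5 h, and at 1 h the single call was lost without CAT replicate 1 or 3 at 0 h or without any one of the CAT arrays at 1 h. The 95% interval of the LPS response at 5 h lay within 1 log2 unit of 0 for 81 of 82 members (98.8%) in the Tbc1d23 line and for 76 (92.7%) in the CAT line, against 69.3 and 47.1% of all gene names. The 0 h and LPS arrays did not overlap for 3, 1 and 3 members in the Tbc1d23 line at 1, 3 and 5 h, beside 9.01, 18.4 and 15.8% of all gene names. In the CAT line they did not overlap for 5, 7 and 22 members, beside 23.3, 44.7 and 56.1%. The median standard error was 0.16 for the members, against 0.19 for all gene names.

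**Figure D3:**
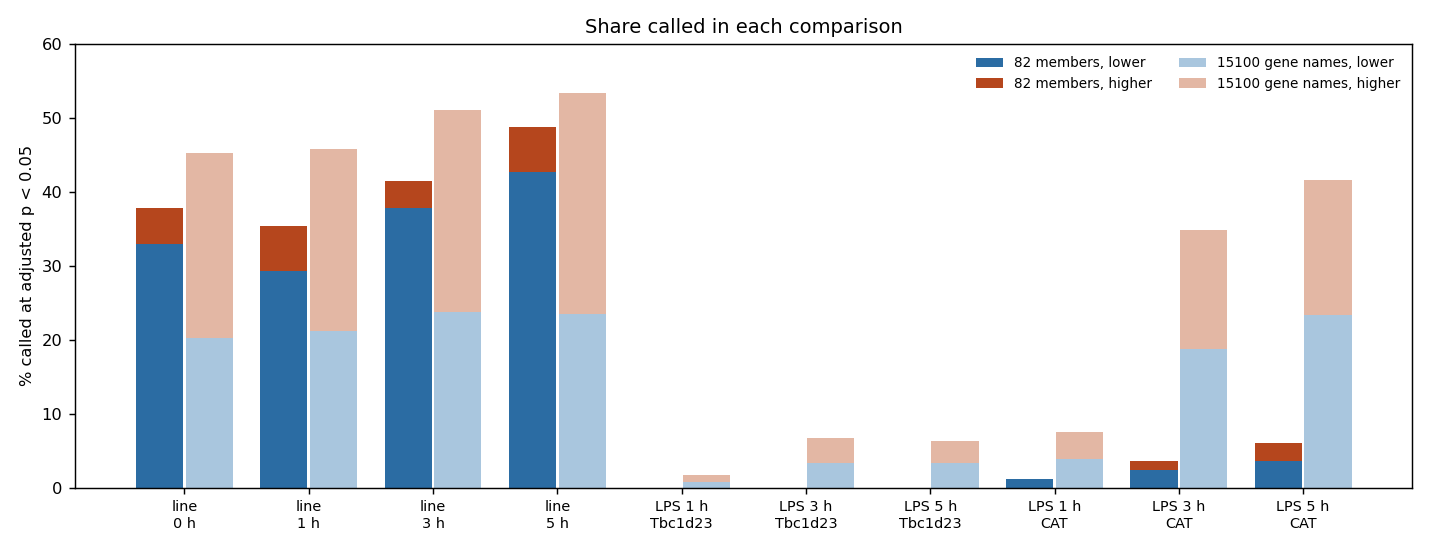
Percent called at adjusted p under 0.05 in each comparison, for the 82 members (dark bars) and all 15100 gene names (pale bars), lower in blue and higher in red. Comparisons of the lines are Tbc1d23 minus CAT, and LPS comparisons are an LPS time minus 0 h within the line named. At 5 h of LPS in the CAT line the bars stand near 6 percent for the members and at 41.6% for all gene names.

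Replicate numbers pair the arrays within a line, because each number is 1 slide, and a fit with the replicate as a block called more. In the CAT line it called 2, 9 and 14 members at 1, 3 and 5 h, against 17.5, 48.9 and 56.8% of all gene names, and in the Tbc1d23 line 0, 2 and 0 members, against 4.66, 16.7 and 15.6%. Of the 14 at 5 h, 7 were higher and 7 lower, beside 30% of all gene names lower, named here after their values were seen. The 7 higher were Cox6a2, Ndufs4, Cox7c, Atp5b, Ndufa12, Atp5f1 and Cox7a2, and the 7 lower were Atp5sl, Atp5s, Cox4nb, Cox7a2l, Ndufs7, Sdha and Ndufs1. Sdha, the succinate-oxidizing subunit, was lower, at -0.24 ± 0.08 in that fit (limma adjusted p = 0.0172) and was not called without the block (adjusted p = 0.197). In the Tbc1d23 line the fit with the block called Atp5sl (-0.24) and Ndufaf1 (0.20) at 3 h.

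The direction of the small CAT responses depended on the scaling. The median response of the members in CAT cells was 0.08 at 3 h and 0.10 at 5 h, and it was -0.12 and -0.16 with quantile normalization. That normalization called 18 members lower and 1 higher at 5 h, beside 43.2% of all gene names called and 26.2% lower, and 7 lower and 1 higher at 3 h, beside 36.8% called and 21.5% lower, while scaling to the array median called 0 higher and 1 lower at 3 h.

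**Figure D4:**
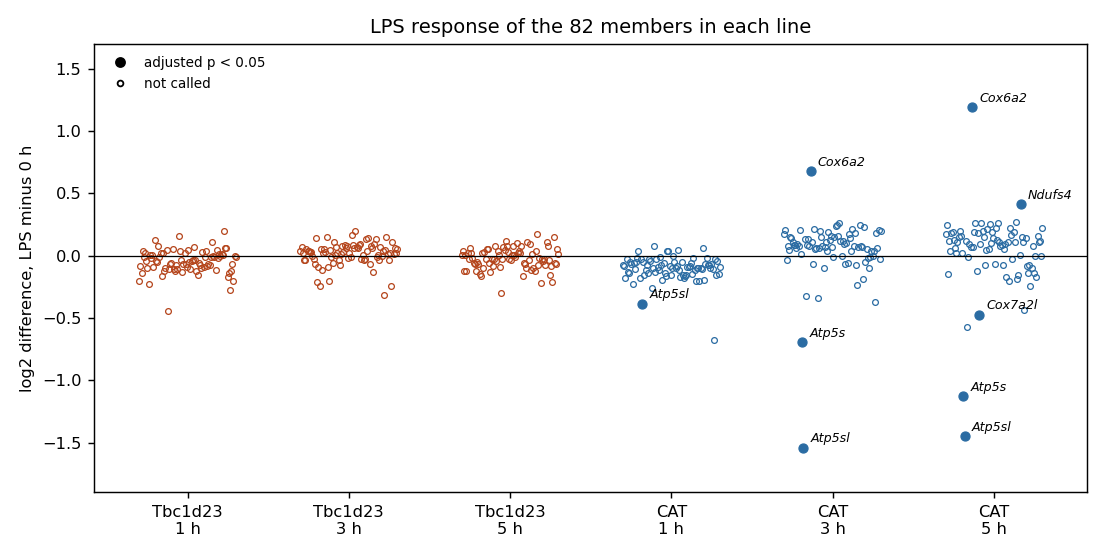
Log2 LPS response (LPS time minus 0 h) of the 82 members in the Tbc1d23 line (red) and the CAT line (blue) at 1, 3 and 5 h. Each circle is 1 member and filled, labelled circles are called at adjusted p under 0.05; no member is filled in the Tbc1d23 line, and Atp5sl and Cox6a2 lie farthest from 0 in the CAT line at 5 h.

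In CAT cells the largest fall was that of Atp5sl, named Dmac2 today and known as an assembly factor of complex I and not as an ATP synthase subunit. Its levels were -0.25, -0.62 and -0.66 on CAT arrays at 5 h, against 1.14, 0.79 and 0.90 at 0 h. All 5 h arrays were below all 0 h arrays, and the response was -1.45 ± 0.11 (limma adjusted p = 2.5e-09), with -0.39 ± 0.11 at 1 h and -1.54 ± 0.11 at 3 h (limma adjusted p = 0.0364 and 1.4e-09). In the Tbc1d23 line the Atp5sl levels were 0.17, 0.26 and 0.25 at 5 h, against 0.38, 0.40 and 0.41 at 0 h. These groups did not overlap either, but the response was -0.17 ± 0.11 (limma adjusted p = 0.595). A second Atp5sl probe, well above background on 7 arrays, fell by 2.22 in CAT cells at 5 h (limma adjusted p = 0.0262).

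Atp5s, named Dmac2l today and known as coupling factor B of ATP synthase, had levels of 0.36, 0.23 and 0.15 on CAT arrays at 5 h, against 1.13, 1.45 and 1.53 at 0 h. The groups lay apart, and the response was -1.13 ± 0.23 (limma adjusted p = 0.000434). A second Atp5s probe fell by 0.72 (limma adjusted p = 0.000137). In the Tbc1d23 line the levels were 0.53, 0.58 and 1.28 at 5 h, against 0.71, 0.86 and 1.28 at 0 h, which overlap. Replicate 3 was above the other arrays at both times.

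Cox6a2, the muscle isoform that was higher in the Tbc1d23 line, rose in CAT cells, with levels of -0.83, -0.76 and -0.97 at 5 h, against -2.25, -1.92 and -1.98 at 0 h. The response was 1.19 ± 0.19 (limma adjusted p = 3.07e-05) and all 5 h arrays were above all 0 h arrays. In the Tbc1d23 line its levels were -0.46, -0.65 and 0.01 at 5 h, against -0.62, -0.55 and -0.09 at 0 h, and it was not called. Cox7a2l, the supercomplex factor, had levels of 3.97, 3.76 and 3.96 on CAT arrays at 5 h, against 4.29, 4.33 and 4.50 at 0 h, a response of -0.47 ± 0.16 (limma adjusted p = 0.0203). Those groups did not overlap, but Cox7a2l was not called with scaling to the array median (-0.51, limma adjusted p = 0.351), with no filter on dim probes (limma adjusted p = 0.0536), or without CAT replicate 3 at 0 h or replicate 2 at 5 h. Ndufs4, an accessory subunit of complex I, had levels of 5.55, 5.54 and 5.52 on CAT arrays at 5 h, against 5.03, 5.16 and 5.19 at 0 h. Its response was 0.41 ± 0.15 (limma adjusted p = 0.0381), and its groups did not overlap. With quantile normalization the Ndufs4 response was 0.21 (limma adjusted p = 0.112), with the array median 0.38 (limma adjusted p = 0.555), and with no filter on dim probes its limma adjusted p was 0.0952. Leaving out any 1 of the 6 CAT arrays at 0 and 5 h also ended its call.

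The test of the difference between the lines' LPS responses, Tbc1d23 minus CAT, called 0, 1 and 3 members at 1, 3 and 5 h, against 2.41, 16.7 and 23.2% of all gene names. At an unadjusted p under 0.05 there were 1, 1 and 4. The calls were Atp5sl at 3 h (1.30 ± 0.16, limma adjusted p = 5.56e-06) and, at 5 h, Atp5sl (1.28 ± 0.16, limma adjusted p = 4.05e-06), Atp5s (0.98 ± 0.32, limma adjusted p = 0.0322) and Cox6a2 (-1.14 ± 0.26, limma adjusted p = 0.00305). Leaving out any of several single arrays ended the Atp5s call, with limma adjusted p of 0.0599 to 0.0947, and so did no filter on dim probes (0.0581). Scaling to the array median ended the 5 h calls of Atp5s (1.27, limma adjusted p = 0.14) and Cox6a2 (-0.85, limma adjusted p = 0.323), and averaging the probes of a gene ended that of Atp5sl at 3 h (0.83, limma adjusted p = 0.409). Atp5sl was lower in the Tbc1d23 line at 0 h (-0.55 ± 0.11, limma adjusted p = 0.000498) and higher at 5 h (0.74 ± 0.11, limma adjusted p = 1.66e-05). The 0 h call was lost with the mean of probes (-0.60, limma adjusted p = 0.242) and inside the shared run (-0.53, limma adjusted p = 0.0521), and the 5 h call with scaling to the array median (0.49, limma adjusted p = 0.266). With the replicate as a block 1, 4 and 6 members were called, against 5.83, 30.3 and 39.7% of all gene names, the additional ones at 5 h being Cox7a2l (0.55), Cox4nb (0.47) and Sdha (0.35). These comparisons share the 0 h arrays with the LPS comparisons.

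**Figure D5:**
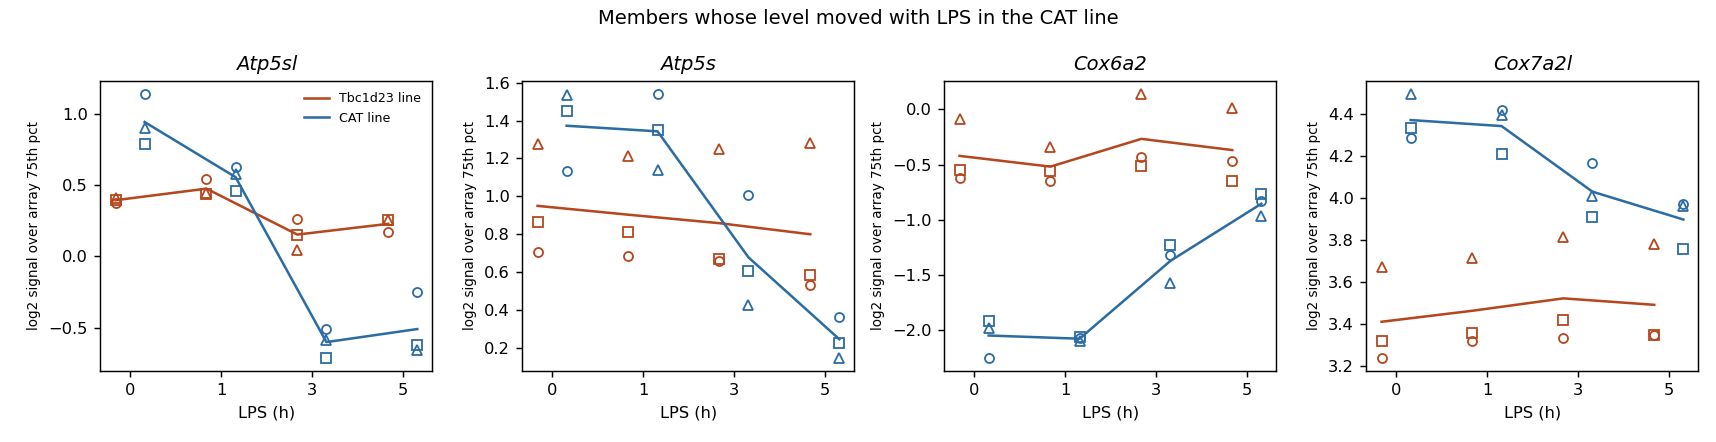
Level (log2 signal over the array's 75th percentile) of Atp5sl, Atp5s, Cox6a2 and Cox7a2l against LPS time, spaced evenly, in the Tbc1d23 line (red) and the CAT line (blue). Each symbol is 1 array (circle, square and triangle for replicates 1, 2 and 3) and lines join means of 3 arrays; vertical scales differ between panels and do not start at 0. Atp5sl on CAT arrays lies below 0 at 3 and 5 h, while on Tbc1d23 arrays it stays above 0.

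Further genes of the pathway were taken from 8 lists. Of their 71 genes tested, 69 were well above background on all 24 arrays, and the counts are over these; Nos2 and Ppargc1a, which were not, are left out, a choice made after seeing the data. At 0 h 29 (42%) were lower and 16 (23.2%) higher in the Tbc1d23 line, beside 20.2 and 25.1% of all gene names. At 5 h 31 (44.9%) were lower and 18 (26.1%) higher, beside 23.5 and 29.9%. With LPS at 5 h 22 (31.9%) were called in CAT cells, 12 lower and 10 higher, beside 41.6% of all gene names, and 4 (5.8%) in Tbc1d23 cells, beside 6.35%. Citrate cycle enzymes were lower in the Tbc1d23 line for 8 of 17 and higher for 2 at 0 h, and 0 rose and 1 fell in CAT cells at 5 h. Idh2, the mitochondrial NADP-dependent isocitrate dehydrogenase, differed by -2.10 ± 0.12 at 0 h (limma adjusted p = 1.63e-10), the lowest of the lists, followed by Ucp2, an uncoupling protein family carrier (-1.70 ± 0.20, limma adjusted p = 1.09e-06). Hif1a, the hypoxia-inducible factor, and Irg1, the itaconate-producing enzyme whose product inhibits complex II, were the highest at 0 h (1.45 ± 0.11 and 1.33 ± 0.14, limma adjusted p = 6.26e-09 and 4.09e-07), and Irg1 was not called at 0 h with scaling to the array median (0.79, limma adjusted p = 0.0675).

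Electron transfer and ubiquinone genes were lower in the Tbc1d23 line for 7 of 12 (58.3%) and higher for 1 (8.33%) at 0 h, beside 20.2 and 25.1% of all gene names, the shares against which each list here stands. Assembly factors of complexes II to V divided evenly, with 5 of 14 lower and 5 higher, and of 5 complex I assembly factors with other names 1 was lower and 1 higher. Regulators of mitochondrial gene expression gave 4 of 13 lower and 4 higher (30.8% each). Cycs, which encodes cytochrome c, was higher (0.65 ± 0.19, limma adjusted p = 0.00948) and Cyc1, the cytochrome c1 of complex III, was lower (-0.58 ± 0.20, limma adjusted p = 0.0257), and of 3 adenine nucleotide and phosphate carriers 2 were lower and 0 higher. Of 3 measured enzymes and partners linked to the chain in LPS-exposed macrophages (Irg1, Hif1a and Ucp2) 1 was lower and 2 higher at 0 h, and 2 lower and 1 higher at 5 h. At 5 h the extremes of the lists were Atpaf2, an ATP synthase assembly factor (1.21 ± 0.17), and Polg2, a subunit of the mitochondrial DNA polymerase (1.18 ± 0.14), and, on the low side, Irg1 (-2.08 ± 0.14), with limma adjusted p of 8.59e-06, 1.66e-06 and 5.36e-10. Nos2, the inducible nitric oxide synthase, was well above background on all 3 arrays of the CAT 5 h group and of no other group, and no difference is given for it.

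With LPS, Irg1 rose to levels of 7.63, 7.75 and 7.53 on Tbc1d23 arrays at 5 h, against 2.53, 2.66 and 2.72 at 0 h. On CAT arrays it rose to 9.73, 9.73 and 9.68, against 1.09, 1.55 and 1.28 at 0 h, with limma responses of 5.00 ± 0.14 in the Tbc1d23 line and 8.41 ± 0.14 in the CAT line (adjusted p = 7.43e-14 and 1.83e-18). Ppargc1b, a coactivator of mitochondrial gene expression, fell in both lines at 5 h, with responses of -1.35 ± 0.19 in the Tbc1d23 line and -1.77 ± 0.19 in the CAT line (limma adjusted p = 7.5e-05 and 2.05e-07); the first was not called with scaling to the array median (limma adjusted p = 0.158). Polg2 was the lowest of the lists in CAT cells (-2.04 ± 0.14), and Ttc19, a complex III assembly factor, and Foxred1, a complex I assembly factor, were the other extremes in Tbc1d23 cells (0.57 ± 0.13 and -0.42 ± 0.12, limma adjusted p = 0.00781 and 0.043). With the mean of probes they were 0.27 and -0.29 and were not called (limma adjusted p = 0.574 and 0.41), nor were they with scaling to the array median (limma adjusted p = 0.425 and 0.919). The Foxred1 call was also lost with no filter on dim probes (limma adjusted p = 0.0629) and without many single arrays, up to a limma adjusted p of 0.22 without Tbc1d23 replicate 2 at 5 h.

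Of 10 macrophage markers tested, 9 were well above background on all 24 arrays. Of these 3 (33.3%) were lower and 2 (22.2%) higher in the Tbc1d23 line at 0 h, beside 20.2 and 25.1% of all gene names, and 5 (55.6%) lower and 0 higher at 5 h, beside 23.5 and 29.9%. The mean level of the 10 was 3.48 to 3.82 on Tbc1d23 arrays at 0 h, against 4.36 to 4.53 on CAT arrays. That mean includes the marker that was not well above background on every array. Among the other 9 the median line difference at 0 h was -0.24, with a range from -3.80 to 0.87. Markers of other cell types passed the filter on dim probes in part. Of 5 B cell markers 3 passed, with a mean level of -2.74 to -1.73 on Tbc1d23 arrays at 0 h, against -4.71 to -4.15 on CAT arrays. Of 8 T and NK cell markers 3 passed, with -2.94 to -2.31 on Tbc1d23 arrays, against -3.02 to -2.62 on CAT arrays. Of 6 granulocyte and erythroid markers 4 passed, with -3.05 to -2.05 on Tbc1d23 arrays, against -4.00 to -3.26 on CAT arrays. Those ranges did not overlap between the lines for the B cell list and the granulocyte and erythroid list, which were above on Tbc1d23 arrays. At 0 h, however, only 1 of the 3 B cell markers was well above background on all 3 arrays in each line. For granulocyte and erythroid markers it was 2 of 4 in the Tbc1d23 line and 3 of 4 in the CAT line. These means therefore include values near background, and no difference in level is read from them. Of 4 dendritic cell markers 3 passed, with -3.54 to -2.43 on Tbc1d23 arrays, against -2.31 to -1.96 on CAT arrays. Of 8 fibroblast and epithelial markers 2 passed, with -4.67 to -2.83 on Tbc1d23 arrays, against -2.36 to -2.16 on CAT arrays. For the dendritic list and the fibroblast and epithelial list the Tbc1d23 range lay below the CAT range. In the Tbc1d23 line at 0 h, 1 of 3 dendritic and 0 of 2 fibroblast and epithelial markers were well above background on all 3 arrays. In the CAT line at 0 h it was 3 of 3 and 2 of 2. The defining T and B cell genes Cd3d, Cd3g, Cd79a and Ms4a1 and the epithelial genes Epcam, Krt8 and Cdh1 did not pass. Several that passed did so through 1 line only, and no count of calls is given for these lists. Their part in the line differences of the respiratory chain genes was not tested.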

How the data were processed

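Cy3-labelled cRNA of 24 samples was measured, each on an Agilent array of 1 colour. The spot intensity used, Agilent's processed signal, is background-subtracted and was made with Feature Extraction 10.7.1.1 on an mm9 grid, per the file headers. The deposited value table, an alternative here, holds log2 values with alike quantiles in every column; of its making the submitters' processing notes name only Feature Extraction, RMA and Partek.

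The log2 processed signal minus each array's 75th percentile was fitted with limma 3.58.1 (R 4.3.3) over 8 group means, with the brightest kept probe per gene name and Benjamini-Hochberg adjustment over 15100 gene names. The filter kept 21964 of 41174 probes, those well above background on each of the 3 arrays of some group. No spot of a member was left out for saturation. With 3 arrays a group, the smallest p of an exact permutation test is 0.1, so none was used. On simulated data for the CAT 5 h comparison over 15100 genes, 67, 67 and 66 genes were changed by 0.5, 1 and 2 log2 units. Of these 17.9, 61.2 and 84.8% were recovered. The simulation drew independent noise and changed few genes, while the real comparison called 41.6% of gene names. These rates therefore do not describe its power. The number of arrays limits the precision.

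Replicate numbers pair arrays within a line: same-numbered arrays, which share a slide, deviated together in 18 of 18 pairs of the Tbc1d23 line (r 0.521 to 0.826) and 18 of 18 of the CAT line (0.185 to 0.687). Between lines r was -0.435 to 0.0296, so numbers do not pair the lines. Genes were named by role, by the largest differences called at all 4 times in a class, by the highest and lowest called with LPS or in the test of the difference, and by disagreement between probes. The members, lists and tests were chosen with earlier results of these data known. Probe positions lie on mm9 and promoters on GRCm38.p6, and no coordinate was converted. The alternatives tried were other scalings, background corrections, filters, probe rules, blocks and left-out arrays. The values of 1 member are not reported here; it is included in the counts.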

Additional observations from a re-analysis of the deposited data

Results flagged for a closer look

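The LPS response differed between the lines in 4 tests of the difference itself, Tbc1d23 minus CAT. Atp5sl, today Dmac2, an assembly factor of complex I, differed by 1.3 at 3 h (limma adjusted p = 5.56e-06) and by 1.28 at 5 h (limma adjusted p = 4.05e-06). Atp5s, today Dmac2l, coupling factor B, differed by 0.979 at 5 h (limma adjusted p = 0.0322). Cox6a2, the muscle isoform of subunit 6a, differed by -1.14 at 5 h (limma adjusted p = 0.00305). The 3 h call of Atp5sl was lost with the mean of probes (limma adjusted p = 0.409). Scaling to the array median ended the calls of Atp5s and Cox6a2 (limma adjusted p = 0.14 and 0.323). The Atp5s call was also lost with no filter on dim probes (limma adjusted p = 0.0581) and without any of several single arrays.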

How the results depend on the processing

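Counts of called members moved by over 1.5 times under these alternatives. With quantile normalization 50 members differed between the lines at 0 h, and 8 and 19 responded in CAT cells at 3 and 5 h; the deposited values gave 50, 8 and 18. Scaling to the array median gave 9, 6 and 17 for the lines at 1, 3 and 5 h, 0, 1 and 3 in CAT cells, and 1 for the difference of responses at 5 h. Normexp, repaired on 6 arrays where its fit failed (chosen after seeing the data), gave 0 and 5 in CAT cells at 1 and 3 h, and no filter gave 0 and 3 at 1 and 5 h. The mean of probes gave 2 in Tbc1d23 cells at 3 h, 6 and 8 in CAT cells at 3 and 5 h, and 0 for the difference at 3 h.

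The replicate block gave 2 in Tbc1d23 cells at 3 h, 2, 9 and 14 in CAT cells, and 1, 4 and 6 for the difference. The slide as a random block gave 2 in Tbc1d23 cells at 3 h, 7 and 10 in CAT cells at 3 and 5 h, and 1, 4 and 6 for the difference. The slide run as a block gave 2, 7 and 8 in CAT cells, and 4 and 5 for the difference at 3 and 5 h. In the run shared by the lines 18, 20 and 21 members differed at 1, 3 and 5 h, and 5 responded in CAT cells at 3 h; without the slide of Tbc1d23 replicate 3 there were 6 in CAT cells and 2 for the difference at 3 h. Leaving out 1 array gave 24 to 33, 21 to 33, 23 to 38 and 24 to 41 for the lines at 0, 1, 3 and 5 h, 0 to 1, 2 to 3 and 3 to 6 in CAT cells, 0 to 0 in Tbc1d23 cells, and 0 to 0, 1 to 1 and 2 to 4 for the difference. Shares of all gene names stand beside some of these counts in the Results, for quantile normalization, the replicate block and the shared run. For the other alternatives none is given. With the replicate block the share of all gene names called in CAT cells at 5 h also rose, from 41.6 to 56.8%. The counts in this section are therefore not read as results about the members. The cause of these shifts was not tested.

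Of 588 results for named genes, 450 kept their side of the threshold throughout, though uncalled ones among them may have changed sign. A reversal was counted only where either fit called the result, and 11 of 21166 comparisons reversed in that sense. Reversed LPS responses in CAT cells were those of Atp5h at 5 h (-0.27 with quantile normalization, -0.27 with deposited values), Cox6a1 at 3 h (-0.22 and -0.22) and 5 h (-0.24 and -0.25), and Ndufs3 at 5 h (-0.18 and -0.18). Reversed line differences were Atp5sl at 1 h with the mean of probes (1.08) and Ndufs8 with the slide run as a block (-0.43 at 0 h, -0.48 at 1 h). Scaling to the array median moved the median of all gene names to -0.45 for the lines at 0 h.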
